A study of Mus musculus with 6 samples.

Results

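The fibroblast growth factor (FGF) receptors *Fgfr1*, *Fgfr2*, *Fgfr3*, *Fgfr4* and *Fgfrl1*, the ligands *Fgf1*, *Fgf2* and *Fgf7*, and the receptor adaptor *Frs2* were followed by RNA sequencing in cultured mouse muscle satellite cells (SCs), the stem cells of skeletal muscle. These 9 genes were selected on their gene name out of 55416 genes in the deposited table. Measured values would have entered the choice only for a name with more than 1 row, where the row with the highest mean was to be used, and 0 of the 9 names had more than 1 row. Levels are in TPM, a unit of transcript abundance that corrects for gene length and library total, so that levels of different genes can be set side by side.

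The study asked how loss of lactoferrin, an iron-binding glycoprotein encoded by *Ltf*, acts on SCs, and it compared 3 libraries of wild-type (WT) SCs with 3 libraries of *Ltf*-KO SCs. The knockout is systemic, so every cell of the animal carries it. It was made with CRISPR-Cas9 in C57/BL6N zygotes and removes part of the gene between 2 guide sites. The adult mice of both genotypes gave hind-leg muscle, from which cells described as Sca1-/CD11b-/CD34+/α7-integrin+ were sorted. The antibodies listed for the staining include Sca1 and α7-integrin but not CD34 or CD11b. Both genotypes were then grown for 4 days on Matrigel, without any further treatment, in a medium that held serum (20%), an extract of chick embryos (1%) and basic FGF (10 ng/mL). Basic FGF is the protein that *Fgf2* encodes, so the cells of all 6 libraries were exposed to added ligand, and the data hold no culture without it. The sources used here do not give how many mice stood behind a library, so p-values measure the spread between these libraries.

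Most FGFs are secreted growth factors that bind receptor tyrosine kinases together with heparan sulfate chains on the cell surface. The activated receptor phosphorylates the docking protein FRS2, which recruits GRB2 with SOS and GAB1 and so feeds the RAS-ERK and PI3K cascades, while Sprouty and Spred proteins act as feedback inhibitors. In muscle, FGF2 is a long-used mitogen of SCs, and FGFR1 and FGFR4 are the receptors best known from myogenic cells.

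The targeted gene was near the floor in both genotypes, with *Ltf* at 0.12, 0.02 and 0.02 TPM in WT and at 0.02, 0.03 and 0 TPM in *Ltf*-KO libraries, so these cultures do not tell the genotypes apart by it. The labelled cell type was checked with 10 markers of satellite cells and myoblasts, which summed to 2179 to 2354 TPM in WT and 2190 to 2476 TPM in *Ltf*-KO libraries, with *Pax7* at 36.6 to 43.3 TPM and *Myod1* at 748 to 816 TPM. *Cd34*, named in the description of the sorted cells, and *Msc* were the lowest of the 10, at 4.41 to 6.2 TPM and 0.85 to 1.68 TPM. Lists of other cell types had lower sums. The highest of these was the fibroblast list, at 103 to 108 TPM in WT and 102 to 134 TPM in *Ltf*-KO libraries. Most of it was *Col3a1*, at 88 to 118 TPM and above *Pax7* in every library. The smooth muscle and pericyte list summed to 45.3 to 47.4 and 45.6 to 57.2 TPM, mostly *Cspg4*, at 30.8 to 41.1 TPM. The endothelial list summed to 7.36 to 17.3 TPM in WT and 8.82 to 17.5 TPM in *Ltf*-KO libraries, the Schwann list to 13 to 24.8 and 14.6 to 22.1 TPM, the macrophage list to 10.8 to 11.8 and 9.48 to 11.9 TPM, and the erythroid list to 9.43 to 11.4 and 9.35 to 13 TPM. In these bulk samples, fewer cells of a type and less RNA per cell cannot be told apart.

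Ordered by mean level over the 6 libraries, *Fgfr1* stood highest at 93.5 TPM, followed by *Fgfr4* at 21.1 TPM, *Fgfrl1* at 17.6 TPM, *Frs2* at 11.9 TPM, *Fgf2* at 6 TPM, *Fgfr2* at 1.69 TPM, *Fgfr3* at 1.58 TPM, *Fgf7* at 0.945 TPM and *Fgf1* at 0.517 TPM. Among all genes averaging 1 TPM or more, the mean of *Fgfr1* was above that of 88.4% of genes and the means of *Fgfr2* and *Fgfr3* were above those of 7.58% and 6.55%. Neighbours in this order kept apart in every library down to *Fgfr2*, except *Fgfr4* and *Fgfrl1*, whose ranges overlapped and where *Fgfr4* was higher in 4 of 6 libraries. The ranges of *Fgfr2* and *Fgfr3* overlapped, with *Fgfr2* higher in 3 of 6 libraries. *Fgfr3* was above *Fgf7* within each of the 6 libraries, and *Fgf7* was above *Fgf1* in 5 of 6, although the ranges over libraries overlapped in both cases.

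**Figure D1:**
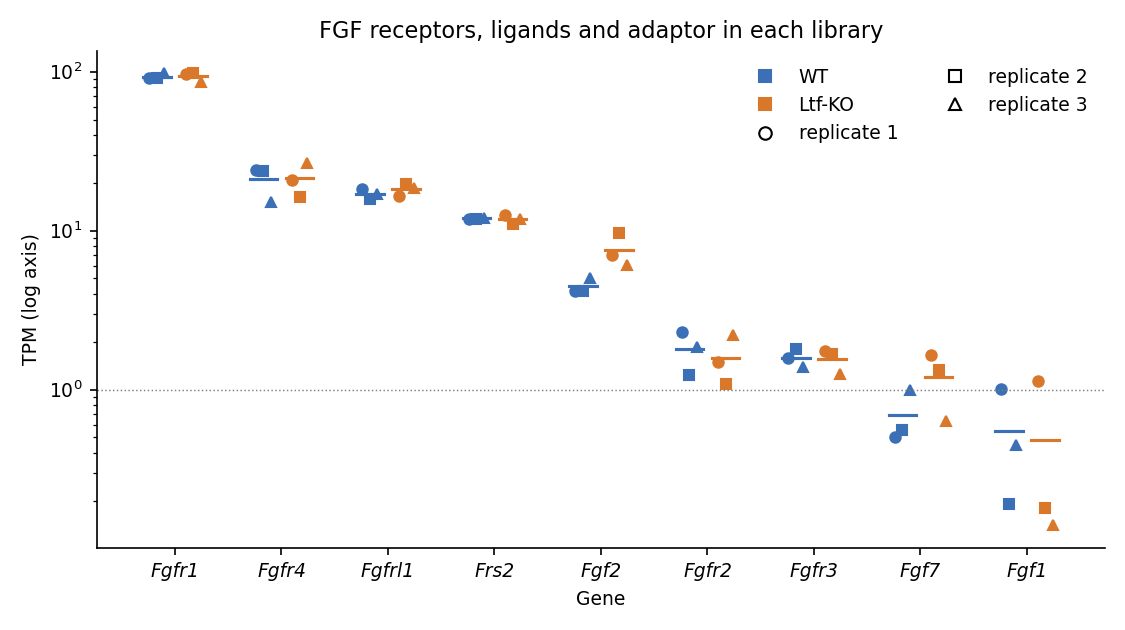
Level of each FGF gene in each library, with genes on the horizontal axis ordered by mean level and TPM on a logarithmic vertical axis; points are single libraries (blue WT, orange *Ltf*-KO, symbol by replicate), short bars are genotype means (n = 3) and the dotted line marks 1 TPM. The 3 *Ltf*-KO points of *Fgf2* sit between 6.04 and 9.6 TPM, above the 3 WT points at 4.15 to 5.07 TPM, while the genotypes overlap for the other 8 genes.

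The comparison of *Ltf*-KO with WT SCs asked whether any of these genes differed between the genotypes. It was made with limma on log2(TPM + 1) over the 12956 genes averaging 1 TPM or more. Folds of weakly expressed genes come out too small on this scale. The 7 genes *Fgfr1*, *Fgfr2*, *Fgfr3*, *Fgfr4*, *Fgfrl1*, *Fgf2* and *Frs2* reached this level, and *Fgf1* and *Fgf7* did not. Of the 7, 0 had a Benjamini-Hochberg adjusted p under 0.05, as did 0% of all tested genes. At an unadjusted limma p under 0.05 stood 1 of the 7, *Fgf2*, against 3.78% of all genes tested, which divided into 2.01% higher and 1.78% lower in *Ltf*-KO SCs. Lower genes made up 46.9% of that list, and 60.04% of it after quantile normalization. The median log2 fold change of the 7 genes was 0.0033, against 0.011 over all tested genes.

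*Fgfr1* (ENSMUSG00000031565, chromosome 8) encodes the receptor through which FGF2 acts in most mesenchymal cells. It was at 91.5, 90.7 and 97.7 TPM in WT and at 96.9, 97.6 and 86.3 TPM in *Ltf*-KO libraries, and the genotypes overlapped, with *Ltf*-KO replicate 3 the lowest of all. The log2 fold change was 0.0033 (standard error 0.06, 95% confidence interval -0.14 to 0.15, limma adjusted p = 0.999), so that folds from 0.907 to 1.11 lie within the interval. It had no stable sign, being below 0 without WT replicate 1 or 2 or *Ltf*-KO replicate 1 or 2 (lowest -0.028) and with median-of-ratios scaling (-0.0071), and 0.060 with *Ltf*-KO replicate 3 left out.

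*Fgfr4* (ENSMUSG00000005320, chromosome 13) encodes the receptor kinase that is characteristic of myogenic cells. Its level varied more than that of *Fgfr1*, from 15 to 26.8 TPM, but within both genotypes. The WT libraries were at 24.1, 23.8 and 15 TPM and the *Ltf*-KO libraries at 20.8, 16.3 and 26.8 TPM, so that each genotype held a low library (WT replicate 3 and *Ltf*-KO replicate 2), and the genotypes overlapped. The log2 fold change was 0.021 (standard error 0.23, 95% confidence interval -0.54 to 0.58, limma adjusted p = 0.999), an interval that holds folds from 0.689 to 1.49. Leaving out WT replicate 3 gave -0.19 and leaving out *Ltf*-KO replicate 3 gave -0.15, whereas leaving out *Ltf*-KO replicate 2 gave 0.19.

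The libraries low in *Fgfr4* were also low in *Myog*, which encodes myogenin, a transcription factor of early muscle differentiation. *Myog* was at 319, 410 and 293 TPM in WT and at 360, 266 and 508 TPM in *Ltf*-KO libraries. *Ltf*-KO replicate 3 was highest in both genes, and WT replicate 3 and *Ltf*-KO replicate 2 were the lowest 2 libraries in both. *Myog* was set beside *Fgfr4* after the values were seen, and its part in the variation of *Fgfr4* was not tested. Myogenin and MyoD bind E-boxes, with the letters CANNTG, where N is any base. A match on 1 strand is also a match on the other, although the bases at N can differ between strands. In the RefSeq promoter window of *Fgfr4* (GRCm38.p6, plus strand, 250 bases before to 50 after the annotated start), 2 such motifs were found, beginning 112 and 10 bases before the start. They are shown in capitals with 12 bases on each side, the first at chr13:55152694-55152723 and the second at chr13:55152796-55152825, because *Fgfr4* is the receptor whose level moved most between libraries among those above 10 TPM.
*Fgfr4* site 1: gtaccgggctgaCATTTGccgggtctcgga
*Fgfr4* site 2: cccgccacgctgCAGTTGcagggacattcc
Windows with the motif made up 72.3% of 32851 RefSeq promoter windows of this length, and 5 of the 7 FGF genes with a window held it, so its presence is common. A match of letters is a description and not evidence of binding.

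**Figure D2:**
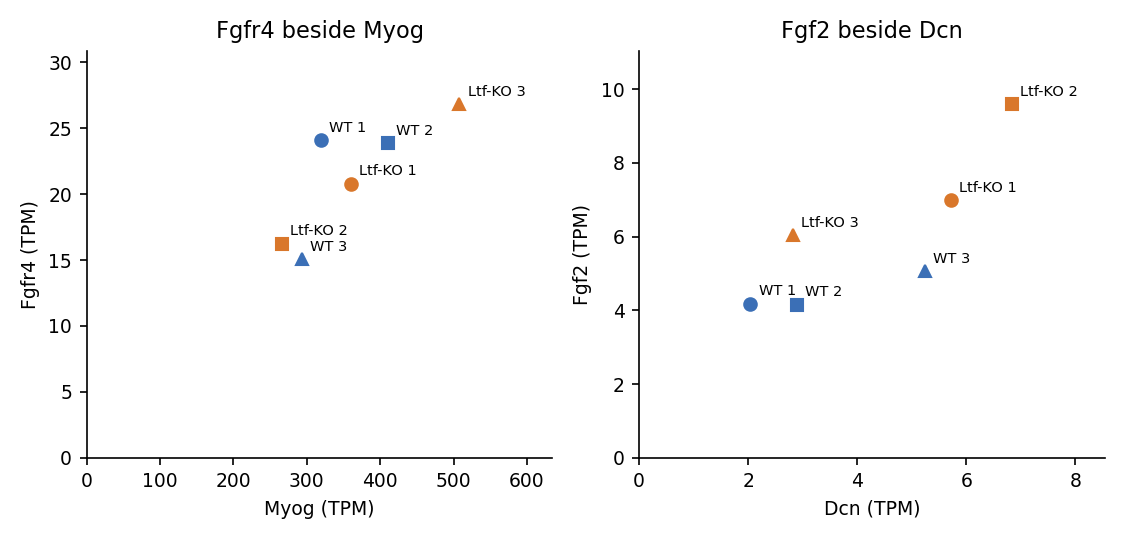
Left, *Fgfr4* against *Myog*, and right, *Fgf2* against *Dcn*, a fibroblast marker, both axes in TPM and starting at 0, with 1 point per library (blue WT, orange *Ltf*-KO) named by genotype and replicate number. *Fgfr4* is highest where *Myog* is highest (*Ltf*-KO replicate 3), and *Fgf2* and *Dcn* are both highest in *Ltf*-KO replicate 2, at 9.6 and 6.83 TPM.

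*Fgfr2* (ENSMUSG00000030849, chromosome 7) and *Fgfr3* (ENSMUSG00000054252, chromosome 5) encode the 2 receptor kinases best known from epithelium and from cartilage. *Fgfr2* was at 2.29, 1.23 and 1.85 TPM in WT and at 1.5, 1.08 and 2.19 TPM in *Ltf*-KO libraries, and *Fgfr3* at 1.59, 1.79 and 1.38 TPM and at 1.75, 1.68 and 1.26 TPM. Both genes overlapped between genotypes, with log2 fold changes of -0.11 (95% confidence interval -0.65 to 0.43) and -0.015 (-0.37 to 0.34), and a limma adjusted p of 0.999 each. In the GENCODE M21 annotation (GRCm38), 314 of the 10328 exonic bases of *Fgfr2* (3.04%) are shared with *Ctbp2* on the same strand, a gene at 60.6 to 71.7 TPM. How reads of this stretch were assigned is not given in the sources used here, so the low level of *Fgfr2*, its rank and its share of the receptor sum are uncertain. *Fgfr2* was lowest in *Ltf*-KO replicate 2, the library in which *Ctbp2* was highest. The *Fgfr3* pseudogene Fgfr3-ps was listed at 0 TPM in all 6 libraries.

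The 4 receptor kinases summed to 118 ± 1.78 TPM in WT SCs and to 118 ± 2.47 TPM in *Ltf*-KO SCs (SD, n = 3 each). *Fgfr1* held 74.02% to 84.2% of this sum and *Fgfr4* 13% to 23.02%, while *Fgfr2* held 0.926% to 1.92% and *Fgfr3* 1.08% to 1.52%. The share of *Fgfr1* was 79.3% ± 4.27 (SD, n = 3) in WT and 79.3% ± 4.89 (SD, n = 3) in *Ltf*-KO SCs, a difference far below the spread between libraries.

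**Figure D3:**
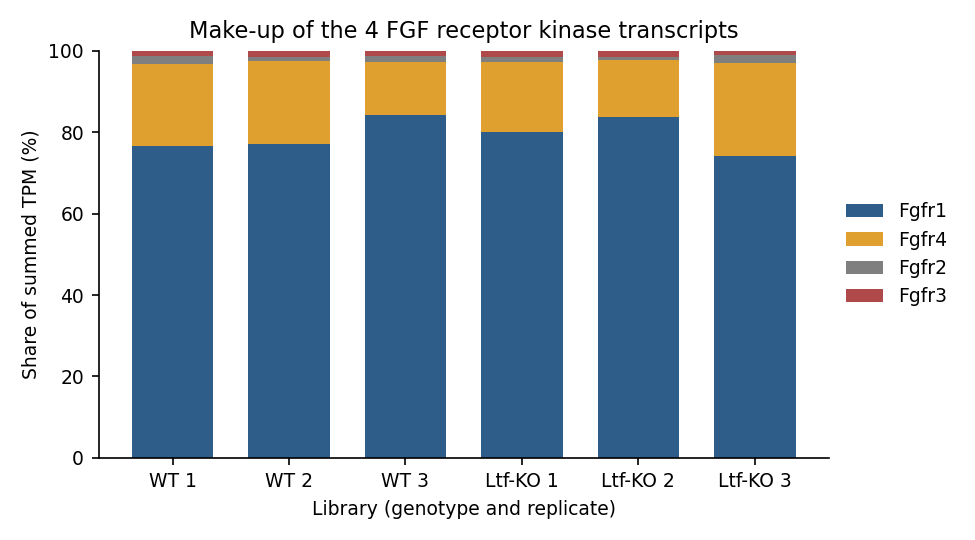
Share of the summed TPM of *Fgfr1*, *Fgfr4*, *Fgfr2* and *Fgfr3* (vertical axis, %) in each library (horizontal axis, genotype and replicate). *Fgfr1* makes up at least 74.02% in every library, and the share of *Fgfr4* runs from 13% in WT replicate 3 to 23.02% in *Ltf*-KO replicate 3.

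*Fgfrl1* (ENSMUSG00000008090, chromosome 5) encodes a receptor that binds FGF and heparin but lacks the tyrosine kinase domain. It was at 18.2, 15.8 and 17 TPM in WT and at 16.5, 19.8 and 18.6 TPM in *Ltf*-KO libraries, with *Ltf*-KO replicate 2 the highest and WT replicate 2 the lowest. The log2 fold change was 0.1 (standard error 0.084, 95% confidence interval -0.1 to 0.3, limma adjusted p = 0.999), and the genotypes overlapped.

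*Fgf2* (ENSMUSG00000037225, chromosome 3) was the ligand with the highest level of the 3 followed. It was at 4.18, 4.15 and 5.07 TPM in WT and at 6.98, 9.6 and 6.04 TPM in *Ltf*-KO libraries. All 3 *Ltf*-KO libraries were above all 3 WT libraries, a pattern that 4.73% of the tested genes showed, and libraries of the genotypes did not overlap in either direction for 8.46%. Mean levels were 4.47 ± 0.523 TPM for WT and 7.54 ± 1.84 TPM for *Ltf*-KO SCs (SD, n = 3 each), the latter 1.69 times as high. The log2 fold change was 0.63 (standard error 0.16, 95% confidence interval 0.23 to 1.02) with a limma adjusted p of 0.999, so that *Fgf2* was under 0.05 before adjustment but did not pass correction over all genes. With 1 library left out, the log2 fold change stayed between 0.46 (without *Ltf*-KO replicate 2) and 0.75 (without *Ltf*-KO replicate 3), and the unadjusted p was under 0.05 each time. The lowest limma adjusted p that any alternative gave for *Fgf2* was 0.946.

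In the GENCODE M21 annotation (GRCm38), *Nudt6*, on the opposite strand, covers 640 of the 6782 exonic bases of *Fgf2*, a share of 9.44%. Whether counting used strand is not given in the sources used here, and without strand the reads of this stretch cannot be told apart. *Nudt6* was at 6.83, 5.9 and 7.97 TPM in WT and at 8, 5.51 and 6.39 TPM in *Ltf*-KO libraries. It overlapped between genotypes. *Nudt6* was lowest in *Ltf*-KO replicate 2, where *Fgf2* was highest, but highest in *Ltf*-KO replicate 1, where *Fgf2* was next to highest. WT replicate 3 was the highest WT library for both genes. The part of the shared stretch in the *Fgf2* values was not tested.

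*Fgf2* was highest in *Ltf*-KO replicate 2 and next in *Ltf*-KO replicate 1, and so were 4 of the 7 genes of the fibroblast list and 2 of the 6 genes of the smooth muscle and pericyte list. In the endothelial, Schwann, macrophage, erythroid and satellite cell lists, 0 genes had this order. The order was taken from *Fgf2* itself, and the share of all tested genes that had it is not given here. Of the genes in this order, *Dcn*, *Col1a1* and *Pdgfrb* were chosen after their values were seen. *Dcn*, which encodes the matrix proteoglycan decorin, was at 2.04, 2.89 and 5.24 TPM in WT and at 5.71, 6.83 and 2.82 TPM in *Ltf*-KO libraries, and *Col1a1*, a fibrillar collagen chain, at 3.73, 4.98 and 5.91 TPM and at 6.91, 9.32 and 5.05 TPM. Other genes of these lists had another order. *Ly6a*, which encodes Sca1, was at 1.33, 2.32 and 2.01 TPM in WT and at 1.66, 1.76 and 3.21 TPM in *Ltf*-KO libraries. It was highest in *Ltf*-KO replicate 3, and the cells had been sorted as Sca1- before the culture. *Pdgfrb*, a receptor of pericytes and fibroblasts, was at 3.73, 3.89 and 4.71 TPM in WT and at 6.95, 7.51 and 4.8 TPM in *Ltf*-KO libraries. The whole fibroblast list of 7 genes summed to 103 to 108 TPM in WT and 102 to 134 TPM in *Ltf*-KO libraries, most of it *Col3a1*, and without *Col3a1*, left out after its values were seen, to 8.21 to 14.8 and 12.4 to 20.2 TPM. Of these 7 genes, 5 were tested, and 0 of the 5 had an unadjusted limma p under 0.05. Below the level required for the fit, *Lum* stayed at 0.11 to 0.37 TPM and *Tcf21* was listed at 0 in 4 of 6 libraries. The smooth muscle and pericyte list of 6 genes summed to 45.3 to 47.4 TPM in WT and 45.6 to 57.2 TPM in *Ltf*-KO libraries. Of its 3 tested genes, 1, *Pdgfrb*, had an unadjusted limma p under 0.05. So did 1 of the 5 tested endothelial genes, *Egfl7*, also higher in *Ltf*-KO SCs, and 3.78% of all tested genes. Near the floor and not tested, *Rgs5* was at 0.12 to 0.18 TPM in WT and 0.23 to 0.46 TPM in *Ltf*-KO libraries, and *Kcnj8* at 0.03 to 0.14 and 0 to 0.06 TPM. *Fgf2* was higher in *Ltf*-KO replicate 3 than in WT replicate 3. Between the same libraries, genes of these lists went both ways. *Dcn*, *Col1a1* and *Cspg4* were lower in *Ltf*-KO replicate 3, and *Col3a1*, *Ly6a* and *Pdgfrb* were higher. The part of such cells in the *Fgf2* values was not tested.

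*Fgf7* (ENSMUSG00000027208, chromosome 2), known as keratinocyte growth factor and made mainly by mesenchymal cells, was below the level required for the fit. It was at 0.5, 0.56 and 1 TPM in WT and at 1.66, 1.32 and 0.63 TPM in *Ltf*-KO libraries. WT replicate 3 and *Ltf*-KO replicates 1 and 2 were the 3 highest libraries, and the genotypes overlapped. *Dcn* and *Col1a1*, set beside *Fgf7* after their values were seen, had the same 3 highest libraries. *Col3a1* and *Ly6a*, also on the fibroblast list, did not. The part of fibroblasts in the *Fgf7* values was not tested. The mean of log2(TPM + 1) was 0.37 higher in *Ltf*-KO (two-sided exact permutation p = 0.2, where 0.1 is the smallest p that 3 libraries against 3 allow), and 0.22 higher without *Ltf*-KO replicate 1.

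*Fgf1* (ENSMUSG00000036585, chromosome 18), the ligand that binds all of the FGF receptor kinases, differed more within than between genotypes. It was at 1.01, 0.19 and 0.45 TPM in WT and at 1.13, 0.18 and 0.14 TPM in *Ltf*-KO libraries, so that 1 library of each genotype stood near 1 TPM and the others below 0.5 TPM. The mean of log2(TPM + 1) differed by -0.092 between *Ltf*-KO and WT (two-sided exact permutation p = 0.8), but its sign was not stable, at 0.11, 0.042 and 0.067 without WT replicate 1, *Ltf*-KO replicate 2 and *Ltf*-KO replicate 3, and -0.38 without *Ltf*-KO replicate 1.

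*Frs2* (ENSMUSG00000020170, chromosome 10), which encodes the docking protein that links FGF receptors to GRB2, was the steadiest of the 9 genes. It was at 11.9, 11.9 and 12.1 TPM in WT and at 12.5, 11.1 and 11.8 TPM in *Ltf*-KO libraries, with *Ltf*-KO replicates 1 and 2 the extremes. Its SD over the 6 libraries was 3.77% of the mean, against 5% for *Fgfr1*, 22.2% for *Fgfr4* and 34.6% for *Fgf2*. The log2 fold change was -0.018 (standard error 0.062, 95% confidence interval -0.17 to 0.13, limma adjusted p = 0.999), and folds from 0.891 to 1.09 lie within the interval.

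The rest of the FGF pathway was read from 5 lists of 74 genes, of which 73 were in the table and 52 were tested. Of the 52, 0 had an adjusted limma p under 0.05, and 3 had an unadjusted limma p under 0.05, *Ext2* and *Sulf1* higher and *Grb2* lower in *Ltf*-KO SCs. These 3 are 5.77% of the 52, near the 3.78% of all tested genes. All *Ltf*-KO libraries lay above all WT libraries for 3 of the 52 and below them for 2. Of all tested genes, 8.46% did not overlap in either direction. The median log2 fold change of the 52 genes was 0.035, against 0.011 over all tested genes, and 33 of them (63.5%) were above 0, against 55.7% of all tested genes. With quantile normalization the medians were 0.023 and -0.0020.

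Of the 19 other FGF ligands, 4 reached a mean of 1 TPM, and 2 (*Fgf4* and *Fgf20*) were listed at 0 in every library. The intracellular FGF homologous factors *Fgf13* and *Fgf11*, which are not secreted and do not act as ligands of the receptor kinases in the usual way, were the highest. *Fgf13* was at 16.8, 20.8 and 22 TPM in WT and at 23.2, 20 and 22.5 TPM in *Ltf*-KO libraries. *Fgf11* was at 8.06, 8.6 and 7.34 TPM and at 9.74, 7.79 and 13.8 TPM, where *Ltf*-KO replicate 3 stood above the other libraries, and its log2 fold change of 0.31 was 0.11 without that library. The secreted ligand *Fgf5* was at 2.52 ± 0.501 TPM in WT SCs and at 2.78 ± 0.131 TPM in *Ltf*-KO SCs (SD, n = 3 each), next below *Fgf2* among secreted ligands. *Fgf6*, a ligand known from skeletal muscle, was at 0.06 to 0.21 TPM. *Fgf3* was listed at 0 in 3 of 3 WT libraries but at 0.05, 0.09 and 0.06 TPM in *Ltf*-KO libraries. Of the 4 tested ligands, 0 had an unadjusted limma p under 0.05.

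Heparan sulfate proteoglycans, cell adhesion proteins and other proteins that bind FGF or its receptors, 18 genes in all, covered a wide range of levels. By mean level, 6 of the 18 were above *Fgfr1*, 9 were at or below *Fgfr4*, and 4 were below 1 TPM. The 5 highest follow. N-cadherin (*Cdh2*) was at 197 ± 1.97 TPM in WT SCs and at 197 ± 7.55 TPM in *Ltf*-KO SCs, and *Ncam1* at 132 ± 15.8 and 128 ± 4.65 TPM (SD, n = 3 each). The glypican *Gpc1* was at 122 ± 1.97 and 126 ± 5.33 TPM, perlecan (*Hspg2*) at 111 ± 4.32 and 117 ± 4.06 TPM, and syndecan 3 (*Sdc3*), a surface marker of SCs, at 117 ± 0.936 and 124 ± 5.34 TPM (SD, n = 3 each). *Sdc3* was at 118, 117 and 117 TPM in WT and at 120, 129.6 and 121 TPM in *Ltf*-KO libraries. All 3 *Ltf*-KO libraries were above all 3 WT libraries, as for 4.73% of all tested genes. Its log2 fold change of 0.072 had a 95% confidence interval of -0.026 to 0.17. Of the 14 tested genes of this list, 0 had an unadjusted limma p under 0.05. The klotho co-receptors *Kl* and *Klb*, which the endocrine FGFs need, were at 0 to 0.06 TPM and 0 to 0.14 TPM.

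Among 11 tested enzymes that build or edit heparan sulfate, 2 had an unadjusted limma p under 0.05, a threshold that 3.78% of all tested genes passed. *Sulf1*, an extracellular enzyme that removes sulfate groups from heparan sulfate and is known to dampen FGF signalling, was at 11.7, 9.75 and 11 TPM in WT and at 13.2, 13.03 and 11.9 TPM in *Ltf*-KO libraries (log2 fold change 0.22, standard error 0.083). *Ext2*, a subunit of the polymerase of the chain, was at 45.9, 41.7 and 43.1 TPM in WT and at 49.7, 47.7 and 46 TPM in *Ltf*-KO libraries (log2 fold change 0.13, standard error 0.053). All 3 *Ltf*-KO libraries were above all 3 WT libraries for both genes, as for 4.73% of all tested genes, and for *Ext2* by 0.1 TPM between the nearest libraries. Neither gene passed correction (limma adjusted p = 0.999). Neither stayed under 0.05 before adjustment with quantile normalization, with the replicate number as a block, or without WT replicate 2, WT replicate 3, *Ltf*-KO replicate 1 or *Ltf*-KO replicate 2, and *Ext2* did not with median-of-ratios scaling, nor *Sulf1* among genes averaging 10 TPM or more. The related *Sulf2* was at 36.1 ± 1.22 and 37.4 ± 1.8 TPM, and *Ext1*, the partner of *Ext2*, at 38.4 ± 0.926 and 40.2 ± 6.68 TPM (SD, n = 3 each).

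Downstream of the receptors, 12 adaptors and effectors were tested. *Grb2*, which encodes the adaptor between FRS2 and SOS, was at 88.9, 82.5 and 87.8 TPM in WT and at 75.2, 76.8 and 78.03 TPM in *Ltf*-KO libraries, and all 3 *Ltf*-KO libraries lay below the WT libraries. Its log2 fold change was -0.17 (standard error 0.043, limma adjusted p = 0.999), between -0.2 and -0.15 with 1 library left out, and it was under 0.05 before adjustment under every alternative run. The ubiquitin ligase *Cbl*, which turns over activated receptors, did not overlap between genotypes either, at 16.6 ± 1.23 and 15.4 ± 0.246 TPM (SD, n = 3 each). The 95% confidence interval of its log2 fold change, -0.26 to 0.057, held 0. Of all tested genes, 8.46% did not overlap between genotypes in either direction. The phosphatase *Ptpn11* (SHP2) was at 62.6 ± 1.57 and 64.8 ± 5.19 TPM, and the adaptor *Crk* at 81.4 ± 2.27 and 81.9 ± 2.83 TPM (SD, n = 3 each).

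Of the 11 tested feedback inhibitors and target genes of FGF signalling, 0 had an unadjusted limma p under 0.05, and their log2 fold changes ran from -0.038 to 0.11. *Spry2* was at 72.3 ± 1.14 TPM in WT and 73.8 ± 2.26 TPM in *Ltf*-KO SCs, *Spred2* at 48.7 ± 0.493 and 50.3 ± 3.43 TPM, and the transcription factor *Etv4* at 43.9 ± 2.44 and 47.4 ± 6.43 TPM (SD, n = 3 each). *Spred1* and *Spry4* had the smallest p of this list, with log2 fold changes of 0.077 (95% confidence interval -0.078 to 0.23) and 0.11 (-0.11 to 0.33). These RNA values hold no measure of the phosphorylation of the receptors or of ERK. In the paper's Western blots of SCs grown for 4 days, phosphorylated ERK was significantly lower in *Ltf*-KO than in WT SCs.

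**Figure D4:**
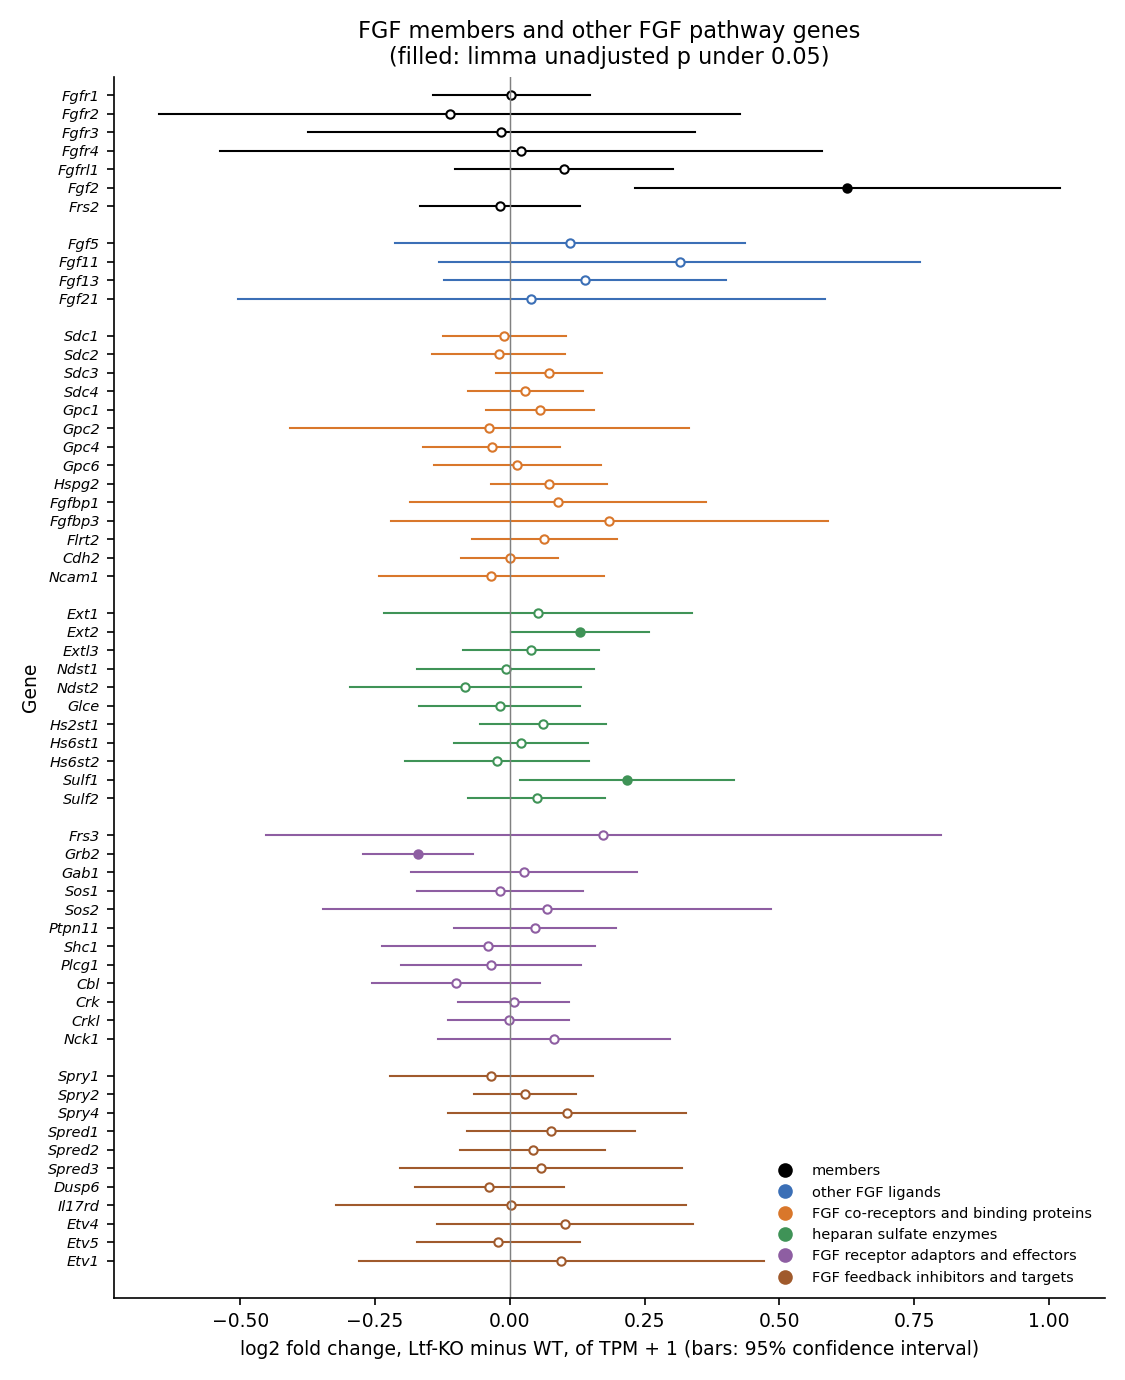
Log2 fold change of TPM + 1, *Ltf*-KO minus WT (horizontal axis), for the 7 tested FGF genes and the 52 tested genes of the other FGF pathway lists (vertical axis, coloured by list), with 95% confidence intervals from limma as bars. Filled points (*Fgf2*, *Ext2*, *Sulf1* and *Grb2*) have an unadjusted p under 0.05, and 0 genes have an adjusted p under 0.05, while *Fgf2* lies farthest from 0 among these genes, at 0.63.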

How the data were processed

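RNA of SCs was sequenced by a company, which extracted and normalized the data by its own protocol. The authors deposited TPM values of 55416 genes with 2 decimals, 1 column for each of 6 libraries, summing to 993650 to 994356 per library. Per the labels the genome build was GRCm39, and the aligner, counting tool and annotation release are not given in the sources used here. TPM keeps no read depth, so the depth is unknown and precision was judged from the spread between replicates. Genotype and replicate number were taken from the sample titles.

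From these values, genes averaging 1 TPM or more were fitted with limma 3.58.1 in R 4.3.3 (lmFit, then eBayes with trend = TRUE) after taking log2(TPM + 1), two-sided, with genotype as the term and Benjamini-Hochberg adjustment over all 12956 tested genes (23.4% of the table). The p threshold was 0.05. The fit was tested on simulated data. *Fgf1* and *Fgf7* were compared by an exact permutation test (scipy 1.17.1).

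The 9 genes and all lists were chosen with earlier results of these data known. The other genes named were *Ltf*, the 3 genes of highest mean and 2 of lowest p in each pathway list, any gene there at an unadjusted p under 0.05, and, for each FGF gene averaging 10 TPM or more, the 3 genes of highest Pearson r with it. Other names were chosen after their values were seen. Same-numbered libraries were checked for pairing. Alternatives were a pseudocount of 0.1, no filter, only genes averaging 10 TPM or more, quantile normalization, median-of-ratios scaling, the replicate number as a block and each library left out. Tests for counts were not run, since the table holds TPM. Annotation was from GENCODE M21 (GRCm38), matched by gene identifier, and promoter windows from RefSeq (GRCm38.p6), which matched 7 of the 9 genes. Chromosomes are given without gene coordinates, because the builds differ.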

Additional observations from a re-analysis of the deposited data

How the results depend on the processing

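No alternative that kept all 6 libraries gave an adjusted p under 0.05 for any gene (0 genes), and leaving out 1 library gave 0 to 6 genes (6 without WT replicate 2, 1 without WT replicate 3, and 5, 2 and 4 without *Ltf*-KO replicate 1, 2 and 3). The 490 genes at an unadjusted p under 0.05 became 890 with no filter and 281 among genes averaging 10 TPM or more, since the number of genes in the fit changed. *Fgf2* was at an unadjusted p under 0.05 under every alternative that tested it. It averaged below 10 TPM, so that 0 of the FGF genes were under the threshold when that level was required. The 3 other pathway genes at an unadjusted p under 0.05 were 1 with quantile normalization and 1 with the replicate block, and ranged from 1 to 5 with 1 library left out (1 without WT replicate 2, WT replicate 3 or *Ltf*-KO replicate 1, and 5 without *Ltf*-KO replicate 3). The cause was not tested.

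Log2 fold changes crossed 0 with 1 library left out for *Fgfr1* (-0.028 to 0.060), *Fgfr2* (-0.27 to 0.036), *Fgfr3* (-0.074 to 0.073), *Fgfr4* (-0.19 to 0.19), *Frs2* (-0.056 to 0.022), the untested *Fgf1* (-0.38 to 0.11), *Cdh2* (-0.020 to 0.032), *Ncam1* (-0.12 to 0.049), *Ext1* (-0.025 to 0.19), *Crk* (-0.018 to 0.031), *Ptpn11* (-0.017 to 0.083), *Spred2* (-0.010 to 0.082) and *Etv4* (-0.00079 to 0.18). With median-of-ratios scaling *Fgfr1* was at -0.0071 and *Crk* at -0.0031. With a pseudocount of 0.1 the log2 differences of *Fgf1* and *Fgf7* were -0.37 and 0.69. Of 81 values for the 7 tested FGF genes over the alternatives, 69 kept direction and 12 did not.

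Once genotype means were subtracted, WT and *Ltf*-KO libraries with one number correlated at -0.041, -0.058 and -0.088. Whether libraries with one number were handled together is not given in the sources used here, and these correlations cannot decide it. With the replicate block, 380 genes were at an unadjusted p under 0.05. Read depth is unknown, which limits what can be said of genes near 0 TPM.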

Other observations

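For each FGF gene above 10 TPM, the genes whose log2(TPM + 1) followed it most closely over the 6 libraries are given as a description, since with 6 libraries many of the 12956 tested genes reach a high correlation with any one gene. *Fgfr4* was followed by *Cldn15* (Pearson r = 0.99 over 6 libraries), by *Pgam2* (r = 0.982), the muscle form of the glycolytic enzyme phosphoglycerate mutase, and by *Nup93* (r = 0.981), a protein of the nuclear pore. *Pgam2* was at 42.7, 47.8 and 28.9 TPM in WT and at 41.3, 31 and 52.8 TPM in *Ltf*-KO libraries, lowest in the same 2 libraries as *Fgfr4* and highest in the same 1. In all, 36 tested genes had an r above 0.95 with *Fgfr4*, 67 with *Fgfr1*, 27 with *Fgfrl1* and 23 with *Frs2*.

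*Fgfr1* was followed by *Klhl42* (r = 0.999), *Atp6ap2* (r = 0.992) and *Pip5k1b* (r = 0.992), *Fgfrl1* by *Gart* (r = 0.992), *Tmem129* (r = 0.989) and *Ttll12* (r = 0.985), and *Frs2* by Gm45338 (r = 0.99), *Syncrip* (r = 0.986) and *Tmx4* (r = 0.983), each over 6 libraries. *Fgfr1* and *Fgfr4* ran in opposite directions across libraries, singled out after their values were seen. *Ltf*-KO replicate 3 was lowest in *Fgfr1* and highest in *Fgfr4*, and WT replicate 3 was highest in *Fgfr1* and lowest in *Fgfr4*.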
